A study of Mus musculus with 139 samples.

Results

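The regions described here are stretches of chromatin of mouse embryonic stem cells (ESCs) that were called as H3K27ac peaks after 4 h of EXOSC2 depletion, were absent from the 0 h list, and lay beside protein-coding genes. They were chosen by the 2 deposited peak lists alone. A peak of the 4 h list was taken when it shared no base with any peak of the 0 h list and lay within 2 kb of either end of a protein_coding locus of the ESC expression table. The rule gave 1285 peaks of the 20449 at 4 h, and the 0 h list held 16239. Absence at 0 h is therefore the choice itself and not a result, and the RNA measurements below took no part in it.

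The study used AID-FBEXOSC2 ESCs, in which the exosome subunit EXOSC2 carries an auxin-inducible degron and is destroyed at the protein level when IAA, the auxin indole-3-acetic acid, is added at 0.5 mM. All groups used here carry this degron, the 0 h groups included, and all but the RAD1 cells named below were grown in medium with serum and leukemia inhibitory factor. Total RNA came from 0, 4 and 20 h of treatment, nascent RNA after a 10 min pulse of the uridine analogue EU at 0, 1, 2 and 4 h, RNA of the chromatin fraction (labelled chrRNP) at 0 and 4 h, and polyadenylated RNA of cells without retinoic acid (labelled RAD0) at 0, 4 and 20 h, with 2 libraries per group. The fits took in further groups of the same deposited files, which add to the estimate of spread: cells kept without leukemia inhibitory factor in 2 uM retinoic acid for 24 h (labelled RAD1) at the same 3 times, and the cyto, np and wcl libraries at 0 and 4 h that were deposited with the chromatin fraction. The labels list 2 H3K27ac libraries at 4 h and 2 sets of 2 at 0 h, and the sources used here do not say which set gave the 0 h list. Whether the line is 1 clone, and whether the 2 libraries of a group came from separate cultures, is not given either, so p-values measure only the spread between these libraries. Cells treated with IAA but lacking the degron were not used here.

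Depth cannot be read from positions, FPKM or RPKM, so no statement below rests on it, and the lists give no peak height. All 8 ESC marker genes had at least 1 FPKM in each of the 6 total RNA libraries, with a summed level of 1352 to 1876 FPKM at 0 and 4 h and of 532 to 581 FPKM at 20 h. The 8 fibroblast markers summed to between 1.95 and 8.08 FPKM. Because EXOSC2 is removed as protein, the level of its mRNA is no check of the depletion.

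H3K27ac is the acetylation of lysine 27 of histone H3, written mainly by the acetyltransferases p300 and CBP. It marks active promoters and enhancers. The RNA exosome is the main complex that degrades RNA from its 3′ end in the nucleus, and its substrates include the short-lived transcripts made upstream of promoters and at enhancers. In ESCs, many promoters of silent or weakly transcribed genes lie in CpG-rich DNA without acetylation.

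The bases just before gene starts where a peak was listed at 4 h show what kind of DNA was involved. The 6 stretches below are the 250 bases before a RefSeq start (GRCm38.p6, the assembly of mm10), each overlapping such a peak at least in part. They belong to 4 genes whose RNA rose at 4 h (Plk2, Cdkn1a, Ddit4l and Eng) and 2 whose RNA fell (Sgk1 and Orai1). Where several starts of a gene qualified, the first by position was taken, and a gene can have other starts outside the peak. The stretches run 5′ to 3′ along the gene, and capitals mark matches to the 8 motifs named after them.
Plk2, chr13:110394794-110395043, plus strand: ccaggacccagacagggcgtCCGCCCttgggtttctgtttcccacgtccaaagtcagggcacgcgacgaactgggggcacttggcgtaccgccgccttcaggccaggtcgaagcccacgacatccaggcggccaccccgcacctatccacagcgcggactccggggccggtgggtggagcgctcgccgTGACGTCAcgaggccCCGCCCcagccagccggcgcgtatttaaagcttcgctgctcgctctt
Cdkn1a, chr17:29090729-29090978, plus strand: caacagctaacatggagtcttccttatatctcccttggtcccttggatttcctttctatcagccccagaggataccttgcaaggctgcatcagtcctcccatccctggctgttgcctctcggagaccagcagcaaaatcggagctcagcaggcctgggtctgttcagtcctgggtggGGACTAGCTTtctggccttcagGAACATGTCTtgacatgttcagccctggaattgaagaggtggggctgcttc
Ddit4l, chr3:137623422-137623671, plus strand: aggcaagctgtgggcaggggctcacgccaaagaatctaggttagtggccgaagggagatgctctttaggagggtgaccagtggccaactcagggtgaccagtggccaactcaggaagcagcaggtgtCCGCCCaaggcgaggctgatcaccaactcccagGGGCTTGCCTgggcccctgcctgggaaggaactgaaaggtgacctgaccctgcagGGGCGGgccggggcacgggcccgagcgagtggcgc
Eng, chr2:32646345-32646594, plus strand: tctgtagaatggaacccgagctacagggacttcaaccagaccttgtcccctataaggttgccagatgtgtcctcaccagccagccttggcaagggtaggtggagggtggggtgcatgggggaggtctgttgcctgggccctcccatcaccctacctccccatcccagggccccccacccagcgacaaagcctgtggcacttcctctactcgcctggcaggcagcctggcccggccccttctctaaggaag
Sgk1, chr10:21881934-21882183, plus strand: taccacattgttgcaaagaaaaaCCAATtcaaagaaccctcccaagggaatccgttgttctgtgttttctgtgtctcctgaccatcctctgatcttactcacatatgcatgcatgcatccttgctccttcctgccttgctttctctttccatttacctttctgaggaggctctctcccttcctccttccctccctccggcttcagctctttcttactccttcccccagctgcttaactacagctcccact
Orai1, chr5:123014824-123015073, plus strand: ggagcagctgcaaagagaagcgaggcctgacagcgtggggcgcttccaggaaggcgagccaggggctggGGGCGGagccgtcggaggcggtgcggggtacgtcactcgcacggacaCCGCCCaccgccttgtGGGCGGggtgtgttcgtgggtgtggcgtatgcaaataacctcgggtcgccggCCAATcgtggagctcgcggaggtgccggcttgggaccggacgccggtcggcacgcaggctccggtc

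The motifs, searched on both strands, were the TATA box (TATAAA), the CCAAT box (CCAAT), the GC box (GGGCGG), the E-box (CACGTG), the cyclic AMP response element (CRE, TGACGTCA), the AP-1 site (TGANTCA), the ETS site (CCGGAAGT) and the p53 half-site consensus. The Plk2 stretch had a GC content of 68.4% with 28 CpG dinucleotides, 2 GC boxes and 1 CRE match, and 201 of its 250 bases, with 1 of the GC boxes and the CRE match, lay in the peak. The Cdkn1a stretch was CpG-poor, with 2 CpG dinucleotides and a GC content of 54%, and held 2 matches to the p53 half-site. The Ddit4l stretch held 2 GC boxes and 1 p53 half-site match, and Eng, with 211 bases in the peak, held none of the 8 motifs. Orai1, with 30 CpG dinucleotides, 3 GC boxes and 1 CCAAT box, and Sgk1, with 2 CpG dinucleotides and 1 CCAAT box, differed from each other too. Only 120 bases of the Orai1 stretch lay in the peak, with 16 of the CpG dinucleotides, 1 of the GC boxes and the CCAAT box, while the stretches of Cdkn1a, Ddit4l and Sgk1 lay in their peaks whole. A match is a description of letters in this window and says nothing of a factor's binding.

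Over all coding genes with a RefSeq start, 456 windows of 300 bases (250 before to 50 after the start) overlapped a 4 h only gene-proximal peak and no kept peak. Their median GC content was 60.3% (quartiles 54.7 and 65.7), beside 61.7% in the 6293 windows over a peak of both lists and 53.3% in the 13565 windows over no 4 h peak. The ratio of observed to expected CpG had a median of 0.734 in them, 0.821 over kept peaks and 0.355 where no 4 h peak lay. By this measure the newly listed starts were CpG-rich and lay between both other classes, nearer to the kept starts.

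By the ratio of shares, the motifs that differed most from the windows without a peak were the ETS site, the CRE, the TATA box, the AP-1 site and the GC box. The GC box was found in 65.8% of the windows under a 4 h only peak, in 67.7% under kept peaks, in 37.4% under no peak and in 47.4% of all 20361 windows. A TATA box was found in 5.92%, 5.58%, 15.7% and 12.3% of them. The ETS site was found in 12.5%, 11.6%, 2.17% and 5.3%.

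**Figure D1:**
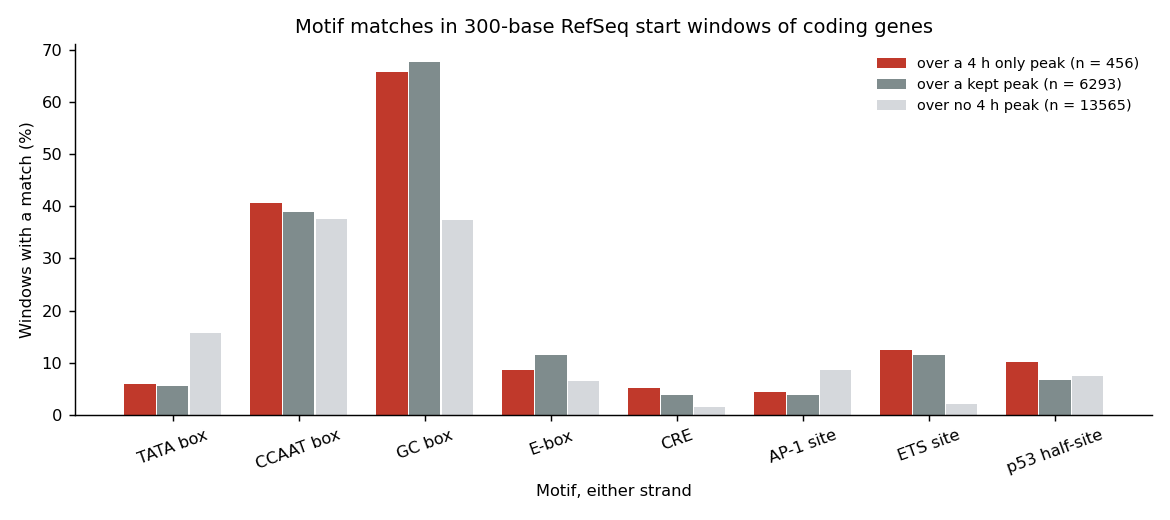
Share of 300-base RefSeq start windows of coding genes with at least 1 match to each motif on either strand (y axis, %), for windows over a 4 h only gene-proximal peak (red), over a kept peak (dark grey) and over no 4 h peak (light grey). The red bars lie near the dark grey ones for the GC box (65.8% and 67.7%) and the TATA box (5.92% and 5.58%), and above both other bars for the p53 half-site (10.1%, 6.67% and 7.5%) and the CRE (5.26%, 3.86% and 1.51%).

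The p53 half-site was found in 46 of the 456 windows (10.1%), against 6.67% under kept peaks, 7.5% under no peak and 7.31% of all windows. The CRE was found in 24 (5.26%), against 3.86%, 1.51% and 2.32%. The CCAAT box stood in 40.6% and hardly varied, with 38% over all windows. The E-box stood in 8.55%, below the 11.5% under kept peaks, and the AP-1 site in 4.39%, against 3.8% under kept peaks, 8.7% under no peak and 7.1% of all windows.

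Most newly listed peaks were not within 2 kb of either end of a coding gene, and no distance was set for the distal ones, which can also lie inside a gene. Of the 6289 peaks at 4 h without a base in common with the 0 h list, 1285 (20.4%, exact 95% interval 19.4 to 21.5) were gene-proximal, whereas 7651 of the 14160 kept peaks were (54.0%, 53.2 to 54.9). Put the other way, 14.4% (13.7 to 15.1) of the gene-proximal and 43.5% (42.6 to 44.4) of the distal peaks at 4 h had no 0 h counterpart. Loss also occurred, since 724 gene-proximal peaks of the 0 h list (8.7%) had no overlap at 4 h. All intervals here and below cover counting error only, and the 4 h list is the longer of both, whose part in these shares was not tested.

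The peaks were narrow. Their median width was 956 bp (quartiles 682 and 1273, range 353 to 3041), beside 1276 bp for kept gene-proximal peaks, 1056 bp for 4 h only distal peaks and 691.5 bp for the gene-proximal peaks lost from the 0 h list. Widths of 2 kb or more were found in 2.41% of them and in 11.7% of the kept gene-proximal peaks.

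Most were not extensions of a 0 h peak. The gap to the nearest 0 h peak had a median of 13699 bp (quartiles 3552 and 40486), and 749 peaks (58.3%) lay over 10 kb away. A minority of 169 peaks (13.2%) lay within 500 bp, so that a small shift of a border would have merged them with a 0 h peak. At the edge of the rule, the peaks nearest to a 0 h peak lay 53 bp from it (shared by Pcolce and Fbxo24), 54 bp (Msc) and 72 bp (Spic), and the kept peaks with the least overlap shared 110 bp (Anp32a), 215 bp (Slc25a42) and 253 bp (Iqgap1). At the edge of the window, peaks 1999 bp (Hemk1), 1992 bp (Ddx19a) and 1985 bp (Ankrd33) from a locus end were taken, and peaks at 2002, 2006 and 2007 bp were not.

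They also differed from the kept peaks in their position along the gene. With strands taken from RefSeq, 688 peaks (53.5%) lay within 2 kb of a gene start, 343 (26.7%, 24.3 to 29.2) lay near a 3′ end only, and for 254 (19.8%) the strand was unknown. Among kept gene-proximal peaks 77.1% lay near a start and 5.28% (4.79 to 5.81) near a 3′ end only. An annotated start was covered by 273 of the peaks (21.2%) and by 52.4% of the kept ones. Near starts, the peak centre lay within 500 bp of the start in 50.6% of them and in 63.2% of the kept peaks, and the median centre stood 177.5 bp and 178 bp into the gene.

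**Figure D2:**
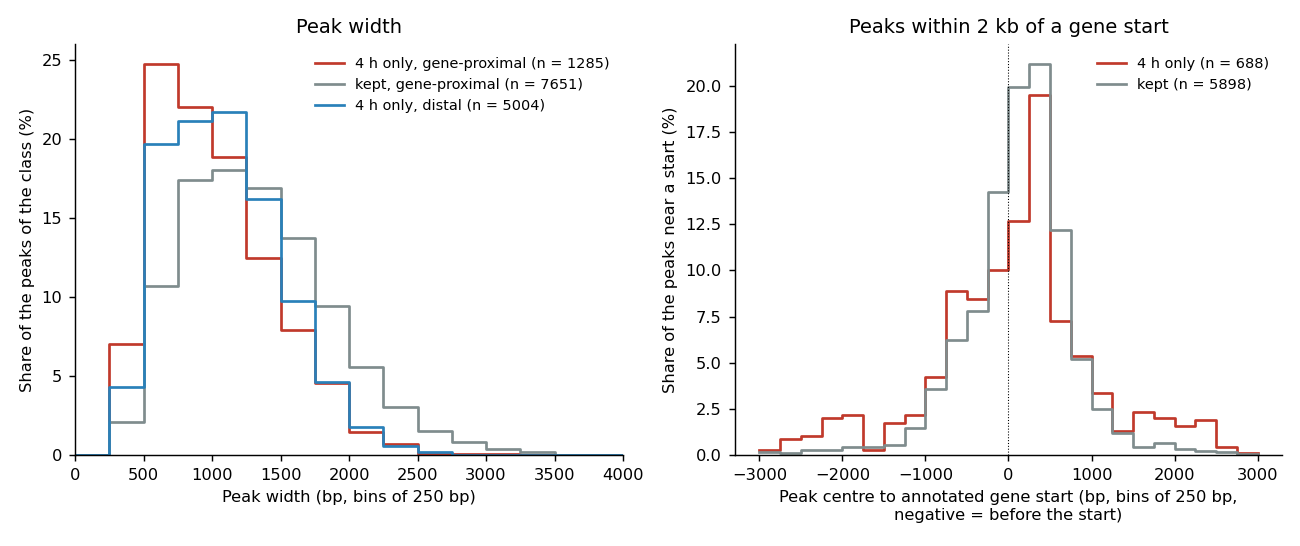
Left, share of each class of H3K27ac peaks (y axis, %) by width in bp, for 4 h only gene-proximal (red, 1285 peaks), kept gene-proximal (grey, 7651) and 4 h only distal peaks (blue, 5004). Right, share of peaks near a gene start (y axis, %) by the distance from the annotated start to the peak centre in bp, for 688 4 h only (red) and 5898 kept peaks (grey); red is the wider curve and has small shoulders beyond 1500 bp on either side.

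The peaks were spread over the genome. They made up between 11.7% (chromosome 1) and 17.8% (chromosome 12) of the gene-proximal 4 h peaks of each autosome, 13% on X, and none of 2 on Y. The widest lay over the 3′ end of Leo1, which encodes a subunit of the PAF1 elongation complex (3041 bp, chr9:75463630-75466670), over the start of Gna15, a G protein alpha subunit (2775 bp, chr10:81523902-81526676), and just before Pcolce (2644 bp, chr5:137611735-137614378). The peak farthest from any 0 h peak lay at Ikzf2, an Ikaros family zinc finger gene, 1347605 bp from the nearest.

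The peaks were linked to 1490 of the 21807 coding genes (6.83%), and 80.9% of them to a single gene. A linked gene had 1 such peak in 1433 cases and 2 in 57, and none had 3. Among the genes with a pair were Plk2, Eng, Ptpn11, Creld2, Tmem64 and Pwp2. For 678 linked genes (45.5%) a 0 h peak lay within 2 kb of either end of the locus, and for 812 (54.5%) none did. Such a 0 h peak can lie at the other end of the gene from the 4 h only peak. At Wdr35, for instance, the 4 h only peak lay at the start, 51248 bp from the nearest 0 h peak. A 0 h peak deeper inside a gene is not counted, so this split is not one of starts with and without acetylation.

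Most linked genes had RNA before depletion, with 1118 of the 1490 (75%) at 1 FPKM or more at 0 h. Their median level in total RNA at 0 h was 4.63 FPKM, beside 0.557 FPKM over all coding genes and 8.5 FPKM for genes near kept peaks only. Linked genes with a 0 h peak had a median of 9.23 FPKM, and those without had 2.2 FPKM. In nascent RNA the medians were 1.19 and 0.269 RPKM. The 84 linked genes listed at 0 in both 0 h libraries of total RNA made up 5.64% of the 1490, against 29.4% of all coding genes.

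In total RNA at 4 h, genes beside these peaks moved both ways, and more of them were called lower than higher. Levels were compared as log2(FPKM + 1) with limma's moderated test, Benjamini-Hochberg adjusted over all genes tested, and a change was called at an adjusted p below 0.05. Of the 1490 linked genes 1177 passed the filter of 1 FPKM in at least 2 libraries, and 58 (4.93%) were called higher and 248 (21.1%) lower. Over all 10360 coding genes tested, 2.17% were called higher and 23.9% lower. The median change was -0.29 among linked genes and -0.33 over all coding genes tested on the log2 scale, so both medians were negative. FPKM values are relative to each library, so neither cell number nor RNA per cell was measured. Fewer cells of a type, less RNA per cell and a shift of scale cannot be told apart in such bulk samples.

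These calls depended on scale, on the filter and on single libraries. With no filter on low values 9 linked genes were called higher and 2 lower, and with the replicate number as a block 37 and 60. With each library rescaled to the same median ratio, which moves the median of all coding genes from -0.33 to -0.01, 93 linked genes were called higher and 20 lower, so the majority turns. Without the first or the second 0 h library 13 and 15 were called higher and 1 and 3 lower. Without the first 4 h library the counts were 29 and 10, without the second 46 and 437, and without either 20 h library 37 or 38 and 82 or 92.

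The share called higher was larger among linked genes that had no 0 h peak in their window. Of these 812 genes, 551 were tested, and 41 (7.44%) were called higher and 83 (15.1%) lower. Of the 678 with a 0 h peak, 626 were tested, and 17 (2.72%) were called higher and 165 (26.4%) lower, close to the 1.88% and 26.6% of genes near kept peaks only. Genes whose peak lay at the 3′ end only had 2.48% called higher, near the background of 2.17%. Among genes linked at their start, 29 of 374 without a 0 h peak (7.75%) and 9 of 240 with one (3.75%) were called higher. The genes without a 0 h peak were also the weaker ones before depletion (2.2 against 9.23 FPKM). At 0 h, 501 of the 812 had a mean of at least 1 FPKM, against 617 of the 678. In each comparison here and below, the filter counted libraries of all times, so a weak gene could pass it by rising. The part of the lower level and of the filter in the difference was not tested.

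**Figure D3:**
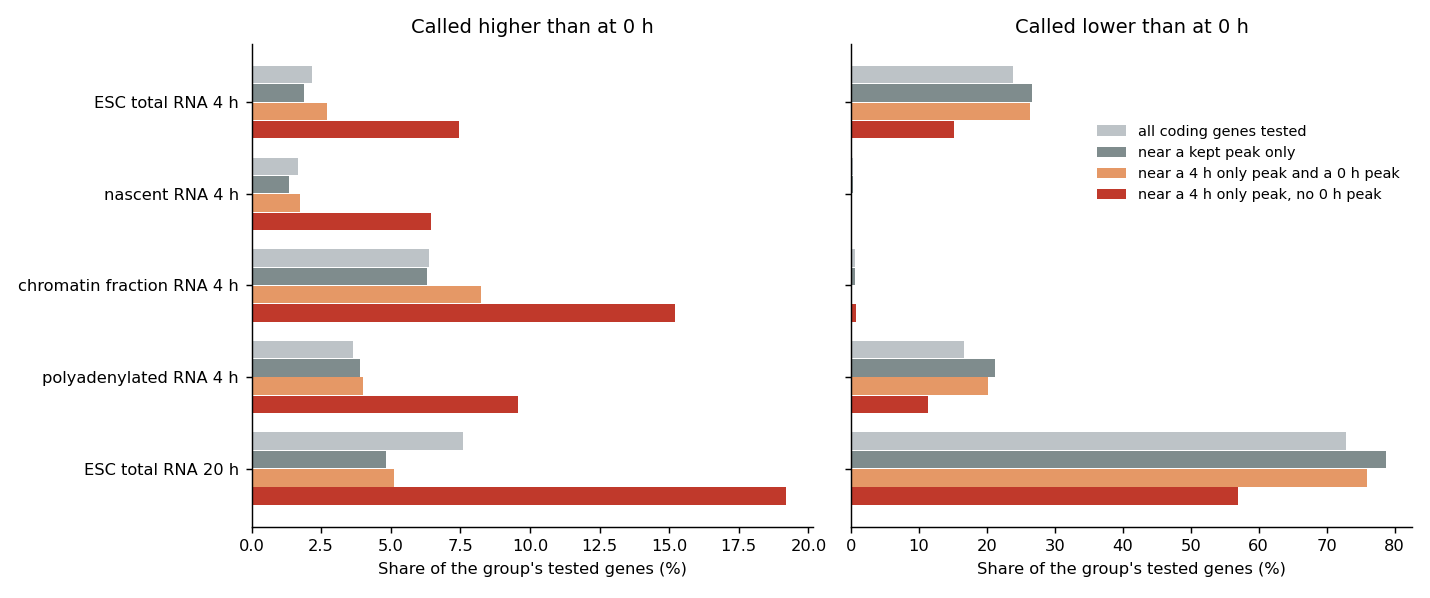
Share of the tested genes of each group (x axis, %) called higher (left) or lower (right) than at 0 h by limma at an adjusted p below 0.05, in 5 comparisons. Groups are all coding genes (light grey), genes near kept peaks only (dark grey), and genes near a 4 h only peak with (orange) or without (red) a 0 h peak in the window; the red bar is the longest of the 4 on the left in each comparison, from 6.44% in nascent RNA to 19.2% in total RNA at 20 h.

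At 20 h more of the linked genes were called, in both directions. Of the 1177 tested, 138 (11.7%) were called higher and 790 (67.1%) lower, beside 7.61% and 72.9% of all coding genes tested. Among linked genes without a 0 h peak 106 (19.2%) were called higher, against 32 (5.11%) of those with one and 14.3% of genes with no peak in the window at either time. After rescaling, 373 linked genes were called higher and 321 lower. The 4 h and 20 h comparisons share their 0 h libraries, so these counts are not separate evidence.

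Nascent RNA, the RNA made during the pulse, was measured in separate libraries. Of the 1490 linked genes 696 passed the filter, and 23 (3.3%) were called higher at 4 h and 1 (0.144%) lower. Over the 6147 coding genes tested 1.68% were called higher and 0.309% lower. Linked genes without a 0 h peak had 15 of 233 called higher (6.44%), and those with one had 8 of 463 (1.73%). At 0 h, 128 of the 812 genes without a 0 h peak and 382 of the 678 with one had a mean of at least 1 RPKM. The filter counts libraries of all times, so a weak gene can pass it by rising. Its part in this difference was not tested. With libraries rescaled, 26 linked genes were called higher and 1 lower. The calls needed all libraries: without any 1 of the 8, between 0 and 2 linked genes were called higher and none lower.

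The chromatin fraction gave more calls. Of 1211 linked genes tested, 139 (11.5%) were called higher at 4 h and 5 (0.413%) lower, beside 6.38% and 0.58% of all coding genes tested. Without a 0 h peak the share called higher was 15.2% (86 of 567), and with one it was 8.23% (53 of 644). Among genes linked at their start these shares were 15.9% and 11.2%. The median of all coding genes was 0.19 in this fraction, and after rescaling 143 linked genes were called higher and 100 lower. Without the first 0 h library 70 were called higher, without the second 567, and without the second 4 h library 64.

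Polyadenylated RNA, a comparison added after the data were seen, gave 87 linked genes higher (6.78%) and 202 lower (15.7%) of 1284 tested. Over all coding genes tested 3.65% were called higher and 16.6% lower. Linked genes without a 0 h peak had 61 of 638 called higher (9.56%) and those with one 26 of 646 (4.02%). After rescaling the counts were 110 and 57. Without the first or second 0 h library 100 and 60 were called lower, and without the first or second 4 h library 87 and 65.

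Some genes rose in libraries that share no sample. Of the 38 linked genes called higher in total RNA and also tested in nascent RNA, 16 were called higher there too (42.1% of the 38, and 69.6% of the 23 called in nascent RNA). Named after their calls were seen, these are Abhd4, Arap2, Dcxr, Eng, Fam212b, Gtse1, Map3k20, Map3k9, Neurod1, Plk2, Ptpn14, Slc33a1, Slc35d1, Vcan, Wdr35 and Zfp365. Over all coding genes the corresponding shares were 33.1% and 44.4%. Only 1 linked gene tested in both was called lower in nascent RNA, so falls could hardly overlap. None of the 180 linked genes called lower in total RNA and tested in nascent RNA was called lower there, and 65 had a change of the opposite sign. Over all coding genes 10 of 1771 were called lower in both (0.565%), and 549 had the opposite sign. In the chromatin fraction only 4 linked genes tested in both were called lower (Klf15, Mtfmt, Ncoa7 and Rai1). All 4 were among the 246 called lower in total RNA (1.63%), of which 158 had the opposite sign in this fraction. The counts over all coding genes were 51 of 2476 (2.06%) and 1411.

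Plk2, a polo-like kinase of the cell cycle and a target of p53, had the largest fitted rise at 4 h among linked genes in total, nascent, chromatin-fraction and polyadenylated RNA. The order depends on the pseudocount in all 4. With 0.1 in place of 1, Exosc6 (5.51), Ltb4r2 (3.63) and Ddit4l (2.90) were among those above Plk2 (2.83) in total RNA at 4 h. So was the low Gm21863, which then missed the threshold (3.89, adjusted p = 0.0604 in limma). Ltb4r2 then also lay above Plk2 in the chromatin fraction (3.84 against 3.41) and in polyadenylated RNA (4.18 against 3.18). In nascent RNA Dcxr, listed at 0 in both 0 h libraries, then passed Plk2 (4.28). At 20 h, with a pseudocount of 1, Ltb4r2 (4.21) and Exosc6 (3.85) lay above Plk2 (3.11). It had a pair of peaks, 1 over its start (chr13:110394843-110395645, 803 bp) and 1 before it (chr13:110392520-110393453, 934 bp), and the nearest 0 h peak lay 207139 bp from them. Total RNA stood at 4.82 and 3.88 FPKM at 0 h, at 29.9 and 32.8 FPKM at 4 h and at 46.9 and 43.3 FPKM at 20 h. The groups did not overlap, and the change at 4 h was 2.60 (SE 0.13, adjusted p = 0.000675). Nascent RNA was 0.539 and 0.837 RPKM at 0 h, 0.326 and 1.03 at 1 h, 1.71 and 3.19 at 2 h, and 14.0 and 15.9 at 4 h. Levels at 1 h overlapped those at 0 h, and those at 2 and 4 h lay above them. The change in nascent RNA at 4 h was 3.24 (SE 0.30, adjusted p = 0.0238).

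Cdkn1a encodes p21, the inhibitor of cyclin-dependent kinases. Its peak covered the annotated start of the locus (chr17:29090403-29092289, 1887 bp, 10569 bp from the nearest 0 h peak). Total RNA rose from 0.98 and 1.18 FPKM at 0 h to 6.53 and 4.43 FPKM at 4 h and 9.69 and 9.80 FPKM at 20 h. The 4 h libraries lay above both 0 h libraries, with a change of 1.62 (SE 0.17, adjusted p = 0.00694). Nascent RNA was 0.377 and 0.652 RPKM at 0 h and 5.89 and 4.37 RPKM at 4 h, a difference of 2.01 (SE 0.33) that missed the threshold (adjusted p = 0.0569). In the chromatin fraction it rose by 1.31 (SE 0.13, adjusted p = 8.77e-05).

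Ddit4l, an inhibitor of mTORC1 signalling, had a peak over its start (chr3:137622973-137624730, 1758 bp), 159195 bp from a 0 h peak. Total RNA went from 0.485 and 0.755 FPKM to 5.04 and 5.32 FPKM at 4 h. The groups did not overlap, and the change was 1.94 (SE 0.13, adjusted p = 0.00134). Perp, a membrane protein of desmosomes induced by p53, had a peak of 1848 bp (chr10:18846172-18848019). Its nascent RNA rose from 0.412 and 0.248 to 3.74 and 6.32 RPKM (2.15, SE 0.29, adjusted p = 0.0383). Its total RNA, 22.8 and 25.5 FPKM at 0 h and 30.5 and 37.7 FPKM at 4 h, missed the threshold at 4 h (adjusted p = 0.0548) and reached 137 and 124 FPKM at 20 h (2.39, SE 0.15, adjusted p = 8.31e-05).

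**Figure D4:**
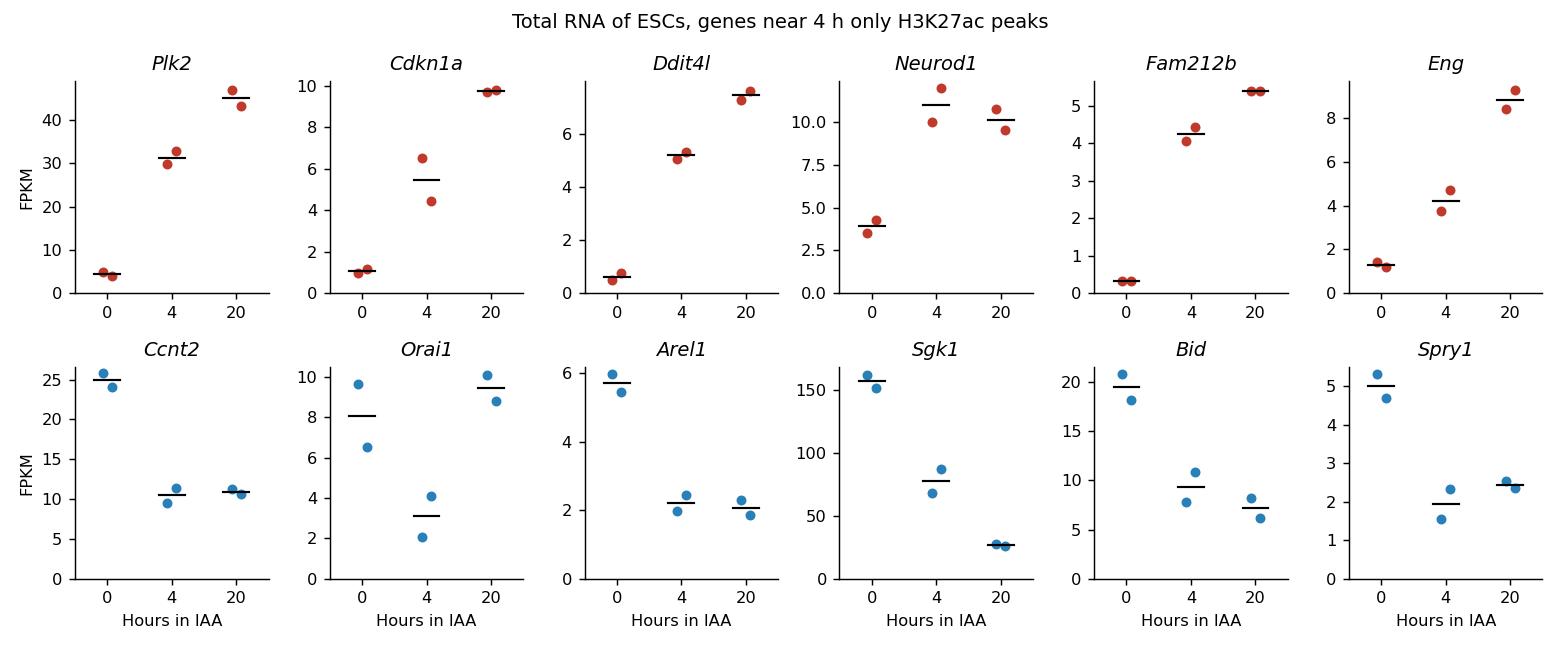
Total RNA in FPKM (y axis, linear, from 0) at 0, 4 and 20 h of IAA for 6 linked genes called higher at 4 h (red) and 6 called lower (blue). Each point is a library and each line the mean of 2; Plk2 and Cdkn1a stand higher at 20 h than at 4 h, the 4 h and 20 h values of Ccnt2 and Arel1 overlap, and Orai1 is back at 10.1 and 8.81 FPKM at 20 h.

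Genes outside the p53 list rose as well. Neurod1, a basic helix-loop-helix factor of neurons and the endocrine pancreas, had total RNA of 3.55 and 4.26 FPKM at 0 h and 10.0 and 12.0 FPKM at 4 h (1.29, SE 0.14, adjusted p = 0.00796). Its nascent RNA rose from 1.70 and 1.15 to 13.6 and 17.1 RPKM (2.76, SE 0.23, adjusted p = 0.0219). The 4 h libraries stood above the 0 h ones in both assays. Its peak (chr2:79454392-79455233) lay within the gene, 1844 bp from a 0 h peak.

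Fam212b, which encodes an inhibitor of the kinase PAK4 (now named Inka2), had 0.323 and 0.318 FPKM at 0 h and 4.06 and 4.43 FPKM at 4 h (1.99, SE 0.11, adjusted p = 0.00119). Eng, the TGF-beta co-receptor endoglin, had a peak over its start and another at its 3′ end (chr2:32646384-32647615 and chr2:32680668-32682945). Its total RNA went from 1.42 and 1.18 to 3.75 and 4.72 FPKM (1.18, SE 0.14, adjusted p = 0.00959) and its nascent RNA from 0.184 and 0.279 to 2.07 and 1.82 RPKM (1.26, SE 0.18, adjusted p = 0.0435). For both genes the 4 h libraries lay above all 0 h libraries.

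Wdr35, a component of the retrograde intraflagellar transport complex, and Dcxr, a carbonyl and xylulose reductase, had raised nascent values by 2 h. Nascent RNA of Wdr35 was 0.678 and 1.09 RPKM at 0 h, 2.70 and 2.49 at 2 h and 5.97 and 4.91 at 4 h (1.78, SE 0.15, adjusted p = 0.0219). Nascent RNA of Dcxr was listed at 0 in the 0 h and 1 h libraries and reached 1.22 and 1.27 RPKM at 2 h and 2.25 and 2.10 at 4 h. In the chromatin fraction Dcxr rose by 2.47 (SE 0.22, adjusted p = 4.83e-05). Ltb4r2, a receptor for leukotriene B4, rose there by 2.68 (SE 0.18, adjusted p = 9.58e-06) and in total RNA from 0.203 and 0.85 to 5.71 and 7.47 FPKM. Its nascent RNA did not pass the filter and showed no rise, at 0 and 2.7 RPKM at 0 h and 0 and 0.47 RPKM at 4 h.

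**Figure D5:**
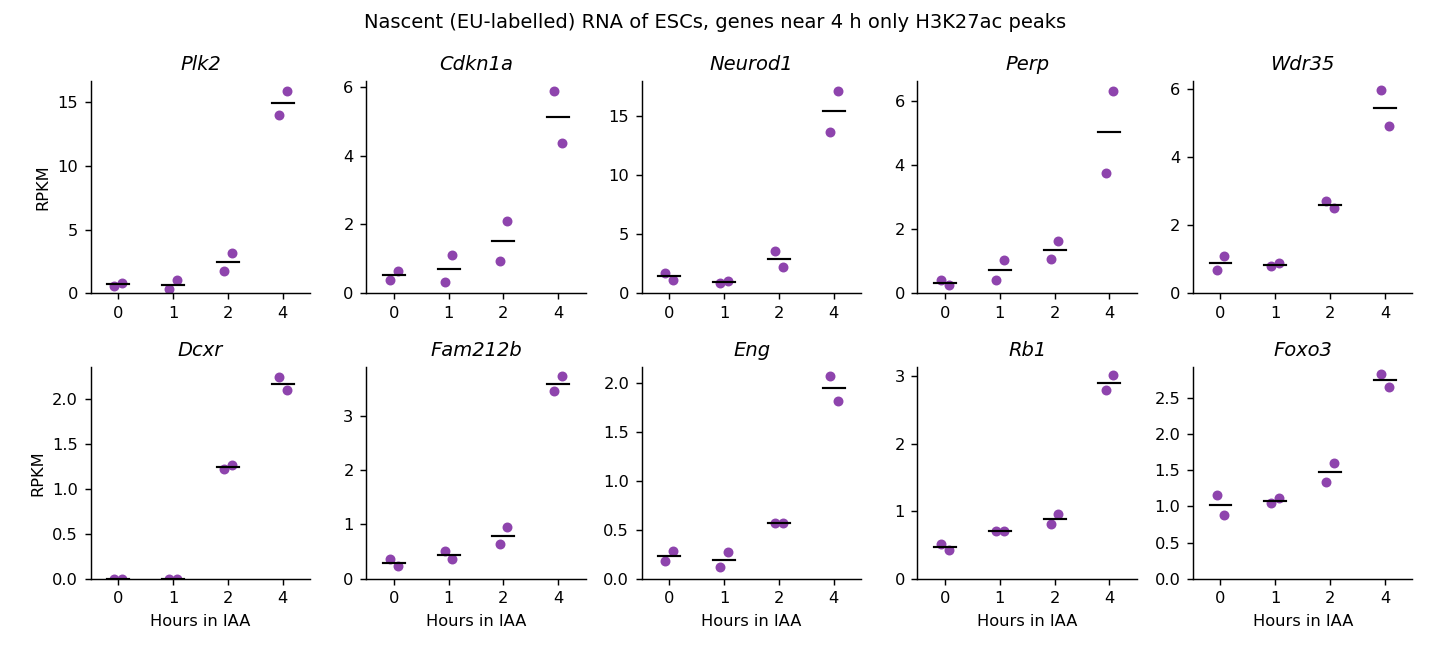
Nascent RNA in RPKM (y axis, linear, from 0) at 0, 1, 2 and 4 h of IAA for 10 linked genes, of which Cdkn1a missed the threshold (adjusted p = 0.0569). Each point is a library and each line the mean of 2; the 4 h libraries lie above all earlier ones in all 10 panels.

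Cell cycle and stress regulators with a peak beside a 0 h peak also appear among the nascent rises. Rb1, the retinoblastoma pocket protein, went from 0.511 and 0.424 to 2.80 and 3.01 RPKM (1.41, SE 0.11, adjusted p = 0.0219), and its total RNA, 1.45 and 2.51 FPKM at 0 h and 2.96 and 3.52 at 4 h, was called higher at 20 h only (2.14, SE 0.19, adjusted p = 0.000161). Foxo3, a forkhead factor of stress responses with a peak of 2485 bp that lay 252 bp from a 0 h peak, went from 1.15 and 0.881 to 2.83 and 2.65 RPKM (0.89, SE 0.12, adjusted p = 0.0368). Neither gene had overlapping nascent libraries between 0 and 4 h.

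Peaks also appeared beside genes whose RNA fell. Ccnt2, the cyclin T2 partner of the elongation kinase CDK9, had a peak 532 bp past its 3′ end (chr1:127808593-127809409). Its total RNA was 25.8 and 24.1 FPKM at 0 h, 9.51 and 11.4 at 4 h and 11.3 and 10.6 at 20 h, a change at 4 h of -1.18 (SE 0.13, adjusted p = 0.00705). Polyadenylated RNA of Ccnt2 was 40.2 and 39.3 FPKM at 0 h, 25.1 and 26.2 at 4 h, and again 37.8 and 39.6 at 20 h. Nascent RNA of Ccnt2, 8.27 and 7.35 RPKM at 0 h and 6.63 and 7.86 at 4 h, overlapped between the groups (-0.10, SE 0.15, adjusted p = 0.78).

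At the starts of Orai1 and Sgk1, whose sequences are given above, peaks were listed at 4 h only while RNA fell. Orai1, the pore of the store-operated calcium channel, had 9.66 and 6.50 FPKM at 0 h and 2.08 and 4.12 FPKM at 4 h (-1.17, SE 0.27, adjusted p = 0.0328), and 10.1 and 8.81 FPKM at 20 h. Sgk1, a kinase induced by serum and glucocorticoids, fell from 162 and 152 FPKM to 68.3 and 87.5 FPKM at 4 h (-1.01, SE 0.15, adjusted p = 0.0149) and to 27.6 and 26.2 FPKM at 20 h. The 0 h and 4 h libraries did not overlap in either gene. With libraries rescaled, Sgk1 kept its call in total RNA at 4 h and Orai1 lost it. Sgk1 has several RefSeq starts, and 3 of them, farther along the gene, lay under a kept peak.

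Arel1, an E3 ubiquitin ligase that limits apoptosis, Spry1, an inhibitor of receptor tyrosine kinase signalling, and Bid, a BH3-only protein that promotes apoptosis, were among the other larger falls. Arel1 went from 5.99 and 5.46 to 1.99 and 2.44 FPKM (-1.07, SE 0.14, adjusted p = 0.0117). Spry1 went from 5.32 and 4.70 to 1.56 and 2.34 FPKM (-1.04, SE 0.16, adjusted p = 0.0162). Bid went from 20.8 and 18.1 to 7.79 and 10.8 FPKM (-1.0, SE 0.19, adjusted p = 0.0228). In all 3 genes both 4 h libraries lay below both 0 h libraries, and in polyadenylated RNA their changes were called too, at -0.64, -0.78 and -0.28. None of the 53 called changes of named genes turned its sign under the alternatives run, which for these 3 genes cover total RNA only.

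At 20 h the largest falls were those of Mov10, an RNA helicase (22.2 and 22.7 FPKM at 0 h, 1.2 and 1.38 at 20 h, -3.36, SE 0.11, adjusted p = 4.37e-05), and Cenpv, a centromere protein (30.3 and 27.9 against 3.32 and 3.08 FPKM, -2.84, SE 0.14, adjusted p = 7.69e-05). Both had their peak at the 3′ end. Emp3, an epithelial membrane protein, with a peak at its 3′ end too, rose from 1.60 and 1.34 to 13.5 and 19.3 FPKM at 20 h (2.79, SE 0.20, adjusted p = 0.000104). The 0 h and 20 h libraries of these 3 genes did not overlap.

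Of 17 gene lists written from textbook knowledge, those of p53 targets and of replication-dependent histones had the largest share of members beside these peaks among lists of at least 10 genes. Direct p53 targets had 8 of 34 linked (23.5%, against 6.83% of all coding genes): Bbc3, Cdkn1a, Ddit4l, Gtse1, Perp, Pidd1, Plk2 and Tnfrsf10b. Genes tested in total RNA were linked more often than all coding genes. Among these, 8 of the 32 on the list were linked, beside 1177 of 10360 coding genes. In total RNA at 4 h 7 of these 8 were called higher, by 0.61 to 2.60, and none lower, where 19 of 32 tested genes of the whole list were called higher. All 8 were called higher in the chromatin fraction and in polyadenylated RNA. That list was written with its rise in these data known, so the counts describe it and are no independent evidence.

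Replication-dependent histones had 15 of 67 linked (22.4%, against 6.83% of all coding genes). They lie in dense clusters, so that 1 peak can be near several of them, and 14 of the 15 had a 0 h peak in the window. Of 13 tested, Hist1h4i and Hist1h4k were called higher in total RNA at 4 h and none lower. In the whole list 3 of 61 tested were called higher and 2 lower, beside 2.17% and 23.9% over all coding genes tested. Hist1h4i stood at 222 and 204 FPKM at 0 h and 390 and 435 FPKM at 4 h (0.95, SE 0.15, adjusted p = 0.0172). Reads of these near-identical genes may have been split between copies, so single values are uncertain.

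The exosome's own genes and its cofactors had 4 of 25 linked. Exosc9, a core subunit, had a peak at 1 end (chr3:36552445-36553608) and 23.3 and 21.0 FPKM at 0 h against 13.8 and 19 FPKM at 4 h (-0.42, SE 0.17, adjusted p = 0.0925). Exosc6 was called higher, from 0.00149 and 0.000342 to 8.83 and 2.28 FPKM (2.50, SE 0.46, adjusted p = 0.0215). The whole Exosc6 locus lies inside that of Aars, an alanyl-tRNA synthetase, and in polyadenylated RNA Exosc6 reached no more than 0.000155 FPKM, so its reads cannot be told apart from those of Aars.

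Of pluripotency genes, 3 of 30 in the naive list were linked. Sox2, a core pluripotency factor, had a peak 1859 bp past its 3′ end (chr3:34654320-34655066, 2538 bp from a 0 h peak) and total RNA of 154 and 129 FPKM at 0 h and 99.0 and 128 FPKM at 4 h (-0.32, SE 0.17, adjusted p = 0.176). Utf1, a chromatin factor of undifferentiated cells, had 123 and 118 FPKM at 0 h and 118 and 117 FPKM at 4 h. In nascent RNA neither Sox2 nor Utf1 was called, and the values of Sox2 were 33.8 and 35.6 RPKM at 0 h and 41.6 and 41.4 RPKM at 4 h. In polyadenylated RNA Sox2 was called lower at 4 h, from 211 and 220 to 151 and 147 FPKM (-0.53, SE 0.05, adjusted p = 0.000404 in limma). Utf1 was not called there (-0.23, SE 0.07).

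Genes that write or erase histone marks were among those linked. In the list of histone acetylation genes 5 of 30 had a peak, and 2 of these were called lower in total RNA at 4 h and none higher. In the whole list 8 of 28 tested were called lower and none higher, beside 23.9% lower over all coding genes, so the linked genes are not set apart by this count. Sirt1, a deacetylase, fell from 22.8 and 22.0 to 9.97 and 12.0 FPKM (-0.97, SE 0.14, adjusted p = 0.0145), and Kat6a, a MYST acetyltransferase, from 6.81 and 6.92 to 3.88 and 4.15 FPKM (-0.65, SE 0.11, adjusted p = 0.0189). In the Polycomb and trithorax list 3 of 26 were linked, and Suz12, a core subunit of PRC2, fell by 0.70 (SE 0.15, adjusted p = 0.028). With libraries rescaled, Suz12 (-0.33) and Kat6a (-0.32) lost their calls in total RNA at 4 h, and Sirt1 (-0.61) kept its call.

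The remaining lists had few linked genes or few changes. For all these lists, the background is 6.83% of all coding genes linked, or 1177 of the 10360 tested in total RNA. At 4 h 23.9% of all coding genes tested in total RNA were called lower, so the counts below do not set these lists apart. Immediate-early and stress genes had 5 of 29 linked (17.2%), and Gadd45b, a stress-induced growth arrest gene, was called lower, from 14.5 and 14.7 to 8.35 and 9.67 FPKM (-0.64, SE 0.12, adjusted p = 0.0223). Elongation factors had 4 of 30 linked, 2 of them lower (Ccnt2 and Ell2), where 10 of 29 tested genes of the list were lower. Cell cycle genes had 4 of 34 linked, 2 of them lower (Cdk6 and Top2a), where 15 of 34 were. Integrated stress response genes had 3 of 19 linked (Aars, Phgdh and Trib3) and cytosolic ribosomal proteins 5 of 84 (5.95%), with no call in total RNA at 4 h. In polyadenylated RNA at 4 h Trib3, a pseudokinase induced by this response, was called lower (-1.05, adjusted p = 0.0235), and so was Aars (-0.27, adjusted p = 0.00876). Germ layer factors had 1 of 43 linked (Neurod1), and of the 8 fibroblast markers 1 was linked (Col1a1), at no more than 1.33 FPKM in any library.

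Noncoding transcripts lay within 2 kb of these peaks in 161 cases, and 26 of them were tested in total RNA. At 4 h 14 were called higher and 1 lower, and their median change was 0.88, while over all 840 tested transcripts of the same classes 33.9% were called higher and 7.02% lower, around a median of 0.33. In nascent RNA 3 of 26 were called higher, against 1.17% of 1279, and in the chromatin fraction 21 of 45 (46.7%), against 25.5% of 1425. In polyadenylated RNA the share was near the background, with 14 of 50 called higher (28%) against 25.7% of 1169. Chosen after their values were seen, Gm13648 rose from 0.204 and 0.403 to 4.30 and 5.05 FPKM (2.12, SE 0.14, adjusted p = 0.00132) and 6430511E19Rik from 3.14 and 3.04 to 13.6 and 16.0 FPKM (1.95, SE 0.12, adjusted p = 0.00127). The sources used here do not say whether total RNA was counted by strand, so reads of such transcripts and of overlapping genes cannot be told apart.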

How the data were processed

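H3K27ac ChIP-seq, total, nascent, chromatin-fraction and polyadenylated RNA of mouse ESCs were used. Peak positions on mm10 were deposited by the authors, made with Bowtie2 2.2.6 and MACS2 per the submitters' processing notes; the sources used here give neither thresholds nor any pooling of replicates. The notes also name TopHat2 (2.0.11) and Cufflinks (version 2.0.2), by which the authors made the deposited FPKM values. Nascent RPKM values are as deposited by the authors, on mm10 and dm6; the sources used here do not state whether a spike-in factor was applied, and a shift of all genes would move every change.

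Positions are printed 1-based. Strands, start windows and sequences come from RefSeq GRCm38.p6, which gave a strand for 76.4% of coding genes by symbol or synonym. Peaks sharing at least 1 bp counted as shared, and shares carry exact (Clopper-Pearson) 95% intervals. Values were fitted as log2(value + 1) with limma 3.58.1 (moderated, trend) in R 4.3.3 for genes reaching 1 in 2 or more libraries. Each model took every group of its deposited file, with Benjamini-Hochberg adjustment over all genes of a comparison at 0.05. Fitted changes are log2 differences on that scale, which understates low genes. Other steps used Python 3.11.15, numpy 2.4.6, pandas 2.3.3, scipy 1.17.1 and matplotlib 3.10.9. The fit was tested on simulated data.

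Named genes were the largest called rises and falls per comparison with groups that did not overlap and a higher mean of at least 5, up to 3 genes per list, and the genes of the widest peaks and with most peaks. Members, lists and tests were chosen with earlier results of these data known. Alternatives were a replicate block, libraries rescaled by their median ratio to the gene means, other pseudocounts, filters and windows, no trend, and each library left out. Some linked genes of the lists are not reported here.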

Additional observations from a re-analysis of the deposited data

Results flagged for a closer look

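Hist1h4k, a replication-dependent histone H4 gene with a 4 h only peak 300 bp from its start, moved in opposite directions at the 2 times in total RNA. It stood at 414 and 439 FPKM at 0 h, 772 and 939 FPKM at 4 h and 158 and 232 FPKM at 20 h. It was called higher at 4 h (1.00, SE 0.21, adjusted p = 0.028) and lower at 20 h (-1.15, SE 0.21, adjusted p = 0.00258), and the test of the difference between 20 h and 4 h gave -2.15. The fall at 20 h is not particular to this gene. At that time 72.9% of all coding genes tested were called lower, and so were 10 linked replication-dependent histones. With no filter on low values, the 4 h change of Hist1h4k missed the threshold (adjusted p = 0.0863 in limma). Its reads may be shared with near-identical histone genes.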

How the results depend on the processing

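The set of 1285 peaks stayed between 1025 and 1885 under the other overlap and window rules and was 387 when only peaks of at least the median width of the 4 h list (1195 bp) were taken. Linked genes called in total RNA at 4 h, 58 higher and 248 lower, became 9 and 2 with no filter on low values, 93 and 20 with libraries rescaled, and 13 to 46 and 1 to 437 with a library left out. At 20 h, rescaling gave 373 and 321. In nascent RNA, leaving out a library left 0 to 2 higher (71 to 112 at an unadjusted p below 0.05 in limma) and 0 lower (44 to 54). In the chromatin fraction the 139 higher ranged from 64 to 567 with a library left out and the 5 lower from 1 to 10; the lower were 2 with no filter and 100 with rescaling. In polyadenylated RNA the 202 lower became 57 with rescaling and 60 to 184 with a library left out. Replicate numbers are shared by the groups, but deviations of same-numbered libraries correlated by -0.026 between 0 and 4 h of total RNA and 0.145 between 0 and 20 h, so the numbers were not taken to pair libraries. With the replicate block 37 linked genes were called higher and 60 lower in total RNA at 4 h, and 0 and 0 in nascent RNA (110 and 51 at an unadjusted p below 0.05). Of 709 recomputed changes of named genes, 560 kept their side of the threshold, 139 lost the call and 10 gained it. None of the 477 that recompute a called change turned its sign, and 20 of the 232 that recompute an uncalled one did, in 17 changes, among them those of Sox2, Utf1, Trib3, Aars, Rpl35 and Rplp0 in total RNA at 4 h. The 4 genes named for nascent RNA (Plk2, Neurod1, Perp and Wdr35) lost their call when any 0 h or 4 h library was left out. With libraries rescaled, Orai1, Bid, Suz12, Kat6a, Gadd45b, Ell2, Cdk6, Top2a and Exosc6 were among those that lost their call in total RNA at 4 h. Trib3 lost its call in polyadenylated RNA. Ccnt2, Arel1, Spry1, Sgk1 and Sirt1 kept theirs in total RNA at 4 h. Causes of these shifts were not tested. Positions without heights, unknown depth and 2 libraries per group limit every comparison.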
